A study of Mus musculus with 8 samples.

Results

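Circadian clock genes were followed in cultured mouse hematopoietic stem cells (HSCs) and in the wider population of LSK cells, each with and without red blood cells (RBCs). The members were 10 genes taken by symbol from a list of 24346: the activators Arntl and Clock, the repressors Bhlhe40, Per1, Per2, Cry1, Cry2, Nr1d1 and Nr1d2, and the output factor Dbp. All 10 were found, and all 10 had a value of at least 1 FPKM (fragments counted per length of transcript and per depth of library) in at least 2 of the 8 libraries, as did 12003 genes in all. The set was chosen by gene function and with the measured differences between cultures with and without RBCs already known, among which those of Arntl and Bhlhe40 were high. Their differences with RBCs are therefore given as a description, with no test, and tests were made of the difference between LSK cells and HSCs, of the difference between the effects in both cell types, and of other clock genes.

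All cells came from bone marrow of wild-type mice, which the methods of the study give as C57BL/6 of 8 to 20 weeks of age. LSK cells were Lin- Sca-1+ c-Kit+ cells, a gate that holds HSCs together with multipotent progenitors, and HSCs (also labelled LT-HSC) were the cells of that gate that were CD48- and CD150+. Both were cultured for 1 day in serum-free medium with thrombopoietin and stem cell factor, alone or cocultured with RBCs that came from C57BL6/J blood and had been passed through a leukocyte filter and irradiated, and CD45+ cells were sorted after lysis of the RBCs. There were 2 libraries in each of the 4 groups, and the labels do not say whether these came from separate cultures or animals, so the p-values measure only the spread between these libraries, which may be technical. The hour at which the cells were taken is not given in the sources used here, and every library is from a single time in culture, so the values are levels at that time and hold no rhythm.

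The circadian clock is a feedback loop of transcription that runs in nearly every cell. BMAL1, the product of Arntl, pairs with CLOCK and binds E-boxes in the promoters of the Per, Cry and Nr1d genes, Dbp and Bhlhe40. PER and CRY proteins then inhibit the BMAL1 and CLOCK pair, the REV-ERB receptors made from Nr1d1 and Nr1d2 repress Arntl itself through elements that they share with the ROR receptors, and BHLHE40 (DEC1) represses E-box genes. In bone marrow, the release of HSCs into blood and the trafficking of leukocytes follow the time of day.

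Promoters were available for 8 of the 10 genes in the RefSeq table (GRCm38.p6, 300 bases from 250 before to 50 after the gene start), in 12 windows. Of these, 4 are shown because they hold elements of the loop described above, with each motif found in capitals. The Arntl promoter carries the REV-ERB and ROR element, and those of Cry1, Per1 and Nr1d1 carry the element of the BMAL1 and CLOCK pair.
Arntl promoter, chr7:113207261-113207560, plus strand: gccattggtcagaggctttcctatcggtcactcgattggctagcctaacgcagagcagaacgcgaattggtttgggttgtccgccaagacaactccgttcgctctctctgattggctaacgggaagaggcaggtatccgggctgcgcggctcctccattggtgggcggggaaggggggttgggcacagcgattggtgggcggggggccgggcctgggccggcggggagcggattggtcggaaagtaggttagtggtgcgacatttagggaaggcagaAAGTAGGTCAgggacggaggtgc
Cry1 promoter, chr10:85185005-85185304, minus strand: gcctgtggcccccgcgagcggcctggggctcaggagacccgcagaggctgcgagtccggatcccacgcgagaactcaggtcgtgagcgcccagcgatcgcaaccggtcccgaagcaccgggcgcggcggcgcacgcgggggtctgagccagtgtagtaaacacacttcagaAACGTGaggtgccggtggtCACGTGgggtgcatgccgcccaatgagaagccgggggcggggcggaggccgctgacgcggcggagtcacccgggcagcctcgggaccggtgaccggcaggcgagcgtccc
Per1 promoter, chr11:69098699-69098998, plus strand: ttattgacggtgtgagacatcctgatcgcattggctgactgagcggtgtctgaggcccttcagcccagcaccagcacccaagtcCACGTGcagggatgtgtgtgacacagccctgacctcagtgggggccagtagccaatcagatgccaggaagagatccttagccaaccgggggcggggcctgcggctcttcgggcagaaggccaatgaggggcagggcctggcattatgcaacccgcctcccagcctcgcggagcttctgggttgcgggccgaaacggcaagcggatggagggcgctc
Nr1d1 promoter, chr11:98775328-98775627, minus strand: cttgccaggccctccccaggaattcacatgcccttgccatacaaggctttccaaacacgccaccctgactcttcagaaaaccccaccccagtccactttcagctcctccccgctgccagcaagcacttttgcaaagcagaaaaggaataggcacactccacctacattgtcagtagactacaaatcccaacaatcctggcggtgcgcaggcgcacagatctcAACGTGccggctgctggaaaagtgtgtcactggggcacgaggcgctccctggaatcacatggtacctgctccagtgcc
The capitals in Arntl mark a match to the element of REV-ERB and ROR receptors (ANNTN directly followed by GGTCA), which began at position 27, counted from the gene start with negative values upstream. Of all 32851 promoter windows of this length, 2.46% held this element on either strand. In Cry1, the capitals mark an E-box (CACGTG) at position -60 and an E'-box (CACGTT, here on the other strand as AACGTG) at position -79. In Per1 they mark an E-box at position -166, and in Nr1d1 an E'-box at position -28. The E-box was present in 7.15% of all windows and the E'-box in 4.68%. Cry2 also had an E'-box, at position -166. Arntl and Per1 each had another window, for another gene start, that held none of these letters. No window of Clock, Nr1d2 or Dbp held any of these letters, and neither the D-box (TTANGTAA, 2.32% of windows) nor the cyclic AMP response element (TGACGTCA, 1.79%) was found in a window of a member. Both strands were searched, no marked motif overlapped another, and a match is a description of the letters and not a site of binding.

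The depth of the libraries was read from the steps between low FPKM values, since 87.0% of 3659 low genes had values that were whole numbers of reads to within 0.05 of a read. Relative to LSK replicate 1 without RBCs, depth ran from 0.886 to 1.13, which corresponds to an estimated 10400000 to 13300000 fragments per library. Kit, a marker of both gates, lay between 90.8 and 137 FPKM in the libraries. After culture the cells were sorted by CD45, so the libraries do not show which gate the cells were in at harvest. The markers of HSCs and LSK cells moved with the RBCs, and 7 of 9 in HSCs and 4 of 9 in LSK cells had a lower mean with RBCs. Slamf1 (CD150) stood at 10.2 and 10.7 FPKM in HSCs alone against 5.5 and 6.59 with RBCs, and at 4.58 and 4.63 FPKM in LSK cells alone against 3.09 and 4.28 with RBCs. Cd48 stood at 42.7 and 40.5 FPKM in HSCs alone against 16.0 and 22.8 with RBCs, and at 147 and 184 FPKM in LSK cells alone against 124 and 128 with RBCs. Ly6a (Sca-1) was higher in both HSC libraries with RBCs, at 719 and 544 FPKM against 388 and 444 alone, and lower in both LSK libraries with RBCs, at 204 and 170 FPKM against 381 and 226. Markers of other cells moved with the RBCs as well. Of 9 neutrophil markers, 9 in LSK cells and 8 in HSCs had a higher mean with RBCs. Their summed level was 128 and 220 FPKM in LSK cells alone and 568 and 363 with RBCs, and 10.6 and 8.54 FPKM in HSCs alone and 254 and 46.0 with RBCs. Of 5 monocyte or macrophage markers, 5 in LSK cells and 4 in HSCs were higher by their means, with sums of at most 33.3 FPKM in LSK cells alone and 103 with RBCs, and of at most 8.14 FPKM in HSCs alone and 16.7 with RBCs, where Adgre1 stayed at or below 0.163 FPKM. Of 5 B cell markers, 4 in each cell type had a higher mean with RBCs, with sums of 38.6 to 41.2 FPKM in LSK cells alone and 49.5 to 51.7 with RBCs, and of 35.7 to 40.3 FPKM in HSCs alone and 34.8 to 36.0 with RBCs. The platelet markers summed to 102 to 197 FPKM in LSK cells alone and 75.8 to 86.4 with RBCs, and to 188 to 225 FPKM in HSCs alone and 180 to 197 with RBCs. T cell markers summed to at most 1.06 FPKM in any library. Red blood cell transcripts (6 of 7 markers listed) summed to at most 2.03 FPKM without RBCs, and to 55.8 to 64.6 FPKM in LSK cells and 110 to 123 FPKM in HSCs with RBCs, with Slc4a1 at 0 in 7 libraries. The part of these cells in the values below was not tested.

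Arntl, which encodes the activator BMAL1, had, together with Bhlhe40, the largest log2 differences between cultures with and without RBCs among the members. In HSCs alone it stood at 10.1 and 10.2 FPKM, and in HSCs cocultured with RBCs at 24.9 and 25.9 FPKM. In LSK cells alone it stood at 15.7 and 18.5 FPKM, and with RBCs at 44.2 and 39.3 FPKM. The libraries with and without RBCs did not overlap in either cell type. In HSCs, means of 25.4 ± 0.743 FPKM with RBCs and 10.2 ± 0.0682 without (SD, n = 2) gave a ratio of 2.5. In LSK cells, means of 41.7 ± 3.47 and 17.1 ± 1.94 FPKM gave a ratio of 2.44. On the log2(FPKM + 1) scale, which understates the changes of low genes, the difference was 1.24 (SE 0.106) in both HSCs and LSK cells, at rank 70 and rank 89 from the top of the 12003 genes. The 4 groups ran in the order HSCs, LSK cells, HSCs with RBCs and LSK cells with RBCs, and no neighbours in this order overlapped. In these bulk libraries, more cells that express a gene and more RNA per cell cannot be told apart. Arntl lies on chromosome 7, from 113207465 to 113314126 on the plus strand (GENCODE M21, GRCm38), and shares 33 exonic bases with the antisense gene Gm45355.

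Clock, the partner of BMAL1, was the lowest or next to lowest of the 10 genes in every library. It stood at 1.52 and 1.58 FPKM in HSCs alone, 1.33 and 1.5 with RBCs, 1.07 and 1.63 in LSK cells alone and 1.68 and 1.17 with RBCs. The LSK libraries overlapped, the HSC libraries did not, and the log2 difference with RBCs was -0.08 in HSCs and 0.05 in LSK cells (SE 0.193 in both). Clock lies on chromosome 5, from 76209868 to 76304792 on the minus strand. The members of the activator pair thus differed in level, since Arntl stood 6.48 to 14.7 times above Clock per length in libraries without RBCs and 17.2 to 33.7 times above it with RBCs, a ratio chosen after the values were seen.

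**Figure D1:**
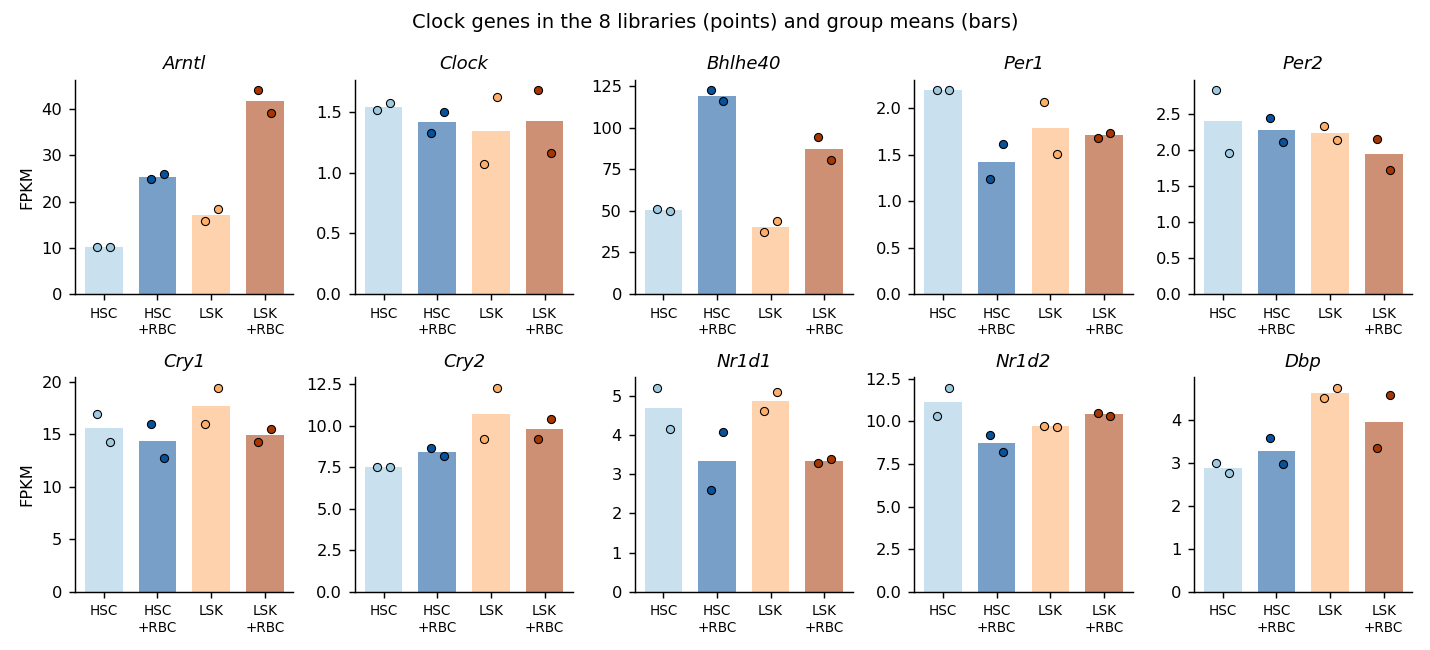
FPKM (vertical axes, each starting at 0) of the 10 clock genes in HSCs and LSK cells without and with RBCs (horizontal axes), with 1 point per library and bars for the mean of 2 libraries. Arntl and Bhlhe40 were higher in both libraries with RBCs than in both without them, in HSCs and in LSK cells, while the other 8 genes differed by less.

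Bhlhe40, an E-box repressor that many stimuli induce, was the most abundant member in all 8 libraries. It stood at 51.2 and 49.9 FPKM in HSCs alone and at 123 and 116 FPKM with RBCs. In LSK cells it stood at 37.0 and 43.7 FPKM alone and at 94.1 and 80.5 FPKM with RBCs. The mean ratio with RBCs was 2.36 in HSCs (50.6 ± 0.960 to 119 ± 4.88 FPKM, SD, n = 2) and 2.16 in LSK cells (40.3 ± 4.73 to 87.3 ± 9.66 FPKM). The log2 difference was 1.22 in HSCs and 1.10 in LSK cells (SE 0.10 in both), at ranks 75 and 123 of 12003. These values rest on many reads, since the steps in FPKM give 1412 to 5001 reads for Bhlhe40 per library, and such read numbers, here and below, are lower bounds whose error covers counting only. The order of the groups was LSK cells, HSCs, LSK cells with RBCs and HSCs with RBCs, again with no overlap between neighbours, and it was the reverse of Arntl between the cell types. Bhlhe40 lies on chromosome 6, from 108660629 to 108666925 on the plus strand, and shares 118 exonic bases with the antisense gene 0610040F04Rik, which stayed at or below 0.762 FPKM.

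The Per genes, whose products inhibit the BMAL1 and CLOCK pair, were low. Per1, the member induced soonest by resetting stimuli, stood at 2.19 and 2.19 FPKM in HSCs alone and 1.23 and 1.62 with RBCs. In LSK cells it stood at 2.07 and 1.5 FPKM alone and 1.68 and 1.73 with RBCs. The HSC libraries did not overlap and the LSK libraries did, with log2 differences of -0.40 and -0.03 (SE 0.176). Per2 stood at 2.83 and 1.96 FPKM in HSCs alone, 2.44 and 2.11 with RBCs, 2.34 and 2.14 in LSK cells alone and 2.15 and 1.73 with RBCs. Its libraries overlapped in both cell types, with log2 differences of -0.04 and -0.14 (SE 0.183), on 120 to 236 reads per library. Per1 lies on chromosome 11, from 69095217 to 69109960 on the plus strand, and Per2 on chromosome 1, from 91415982 to 91459324 on the minus strand.

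The Cry genes, the partners of PER in repression, were more abundant than the Per genes in every library. Cry1 stood at 16.9 and 14.2 FPKM in HSCs alone and 16.0 and 12.7 with RBCs, which overlapped. In LSK cells it stood at 16.0 and 19.4 FPKM alone and 14.3 and 15.5 with RBCs, which did not overlap. Its log2 differences of -0.12 in HSCs and -0.23 in LSK cells (SE 0.145) were small beside those of Arntl. Cry2 stood at 7.51 and 7.52 FPKM in HSCs alone, 8.66 and 8.17 with RBCs, 9.19 and 12.3 in LSK cells alone and 9.22 and 10.4 with RBCs. The log2 difference with RBCs was 0.14 in HSCs and -0.11 in LSK cells (SE 0.147). Cry1 lies on chromosome 10, from 85131700 to 85185064, and Cry2 on chromosome 2, from 92403646 to 92434043, both on the minus strand. Cry2 shares 295 exonic bases with D930015M05Rik on the other strand, which lay between 1.32 and 4.08 FPKM, and because the library kit does not mark strand, reads of the shared part cannot be told apart.

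Nr1d1, which encodes REV-ERB alpha, a repressor of Arntl, had both libraries with RBCs below both without them in each cell type. It stood at 5.21 and 4.16 FPKM in HSCs alone and 2.59 and 4.08 with RBCs, so that the closest libraries differed by little. In LSK cells it stood at 4.62 and 5.11 FPKM alone and 3.29 and 3.39 with RBCs, which lay well apart. The log2 difference was -0.41 in HSCs and -0.43 in LSK cells (SE 0.190), at ranks 504 and 372 from the bottom of 12003. Without replicate 1 of HSCs with RBCs, the value in HSCs was -0.16, and without replicate 2 it was -0.66. Nr1d1 had 87 to 197 reads per library, and on chromosome 11, from 98767932 to 98775333 on the minus strand, it shares 263 of its 3077 exonic bases with Thra on the other strand. Thra lay between 3.10 and 6.84 FPKM, and reads of the shared bases cannot be told apart.

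Nr1d2, which encodes REV-ERB beta, was the more abundant of the REV-ERB genes in every library. It stood at 10.3 and 12 FPKM in HSCs alone and 9.22 and 8.20 with RBCs, both lower. In LSK cells it stood at 9.75 and 9.67 FPKM alone and 10.5 and 10.3 with RBCs, both higher. The log2 difference was -0.32 in HSCs and 0.09 in LSK cells (SE 0.120). Nr1d2 lies on chromosome 14, from 18204054 to 18239127 on the minus strand.

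Dbp, a D-box factor driven directly by the BMAL1 and CLOCK pair and often read as an output of the clock, stood at 3.0 and 2.76 FPKM in HSCs alone and 3.58 and 2.98 with RBCs. In LSK cells it stood at 4.52 and 4.76 FPKM alone and 3.34 and 4.59 with RBCs. The libraries with and without RBCs overlapped in both cell types, with log2 differences of 0.14 and -0.19 (SE 0.169), on 49 to 102 reads per library. Dbp lies on chromosome 7, from 45705088 to 45710203 on the plus strand, and shares 539 of its 2993 exonic bases with Sphk2 on the other strand. Sphk2 lay between 11.7 and 15.9 FPKM, above Dbp in every library, and the kit does not mark strand.

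Across the 10 genes, 4 had higher and 6 had lower values with RBCs in each cell type. The median log2 difference was -0.06 in HSCs and -0.07 in LSK cells, beside medians of -0.00617 and -0.00953 over all 12003 genes. Libraries with and without RBCs did not overlap for 7 members in HSCs, where 41.7% of all genes did not overlap, and for 5 members in LSK cells, where 50.7% did not. The members just inside and outside the large differences lay far apart, since the next highest value after Arntl and Bhlhe40 was 0.14 in HSCs (Cry2 and Dbp) and 0.09 in LSK cells (Nr1d2). The E-box targets of BMAL1 among the members other than Bhlhe40 had log2 differences from -0.41 to 0.14 in HSCs, and in LSK cells from -0.43 to 0.09.

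**Figure D2:**
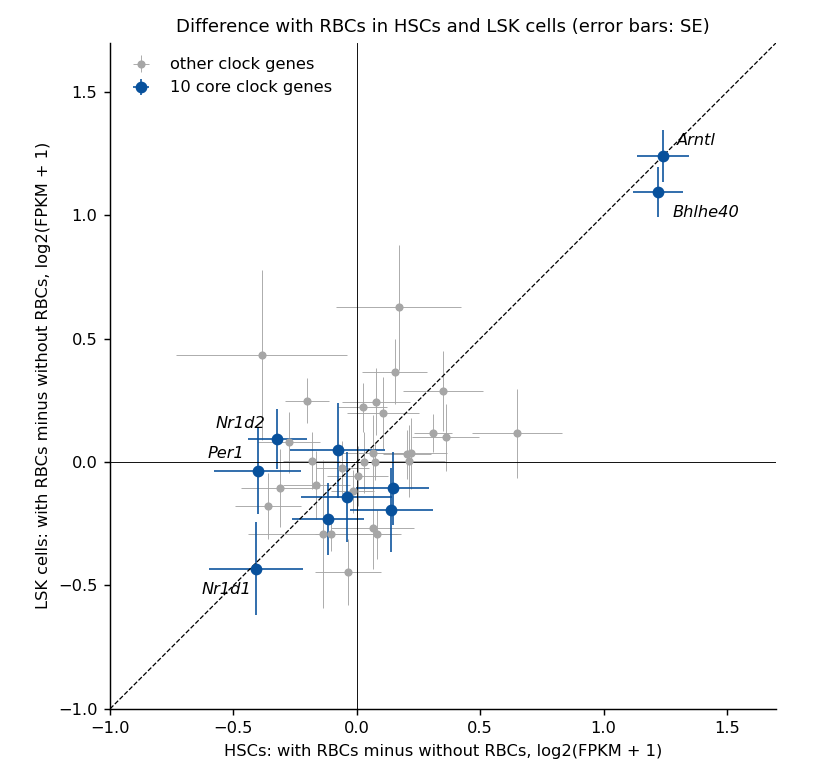
Difference with RBCs on the log2(FPKM + 1) scale in HSCs (horizontal axis) and LSK cells (vertical axis) for the 10 clock genes (blue) and 30 other clock genes (gray), with bars for 1 SE and a dashed line of equal differences. Arntl at 1.24 and 1.24 and Bhlhe40 at 1.22 and 1.10 lie near the line and apart from the rest. Nr1d1 at -0.41 and -0.43 is the lowest member on this scale in both cell types, close to Per1 (-0.40) in HSCs.

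Ratios within a library do not depend on its scaling, and those below were chosen after the values were seen. Arntl stood above its repressor Nr1d1 by 1.94 and 2.45 times in HSCs alone and by 9.60 and 6.35 times with RBCs. In LSK cells the ratio was 3.41 and 3.61 alone and 13.4 and 11.6 with RBCs. The libraries with RBCs were thus all above those without, but Arntl was known beforehand to be high with RBCs. Against Per2, Arntl likewise stood 3.57 to 8.65 times higher without RBCs and 10.2 to 22.8 times higher with RBCs. The separation is therefore a description of Arntl and no test of Nr1d1. The ratio of Bhlhe40 to Arntl moved less. It was 5.06 and 4.88 in HSCs alone and 4.94 and 4.47 with RBCs, and in LSK cells 2.35 and 2.37 alone and 2.13 and 2.05 with RBCs. By level, Arntl was the fourth of the 10 members in HSCs alone and the third in LSK cells alone, and came next after Bhlhe40 in all 4 libraries with RBCs, where Cry1 had been before.

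Which clock genes differ between LSK cells and HSCs was asked with limma over all 12003 genes, with Benjamini-Hochberg adjusted p-values. The estimate averaged over both culture conditions is independent of the differences with RBCs by which the genes were known. Its SE comes from the same spread between the 8 libraries, so the p-values of Arntl and Bhlhe40 are not free of that choice. The study also listed both genes among those raised with RBCs in both populations, at levels it called comparable in HSCs and LSK cells. How it judged this is not given in its text, so their estimates may not be free of that listing. Averaged over both conditions, 3 of the 10 genes were higher and 1 was lower in LSK cells at an adjusted p under 0.05. Among all genes, 32.9% passed (16.1% higher and 16.8% lower). Arntl was higher in LSK cells by 0.69 on the log2 scale (SE 0.0749, 95% confidence interval 0.52 to 0.86, adjusted p = 0.000182). Bhlhe40 was lower by -0.39 (SE 0.0709, -0.55 to -0.23, adjusted p = 0.00317). Cry2 was higher by 0.33 (SE 0.104, 0.09 to 0.56, adjusted p = 0.0390), and its 4 LSK libraries all lay above its 4 HSC libraries. Dbp was higher by 0.37 (SE 0.120, 0.10 to 0.64, adjusted p = 0.0398). Sphk2, which shares exonic bases with Dbp, also lay higher in LSK cells, at 13.03 to 15.9 FPKM against 11.7 to 12.95 FPKM in HSCs. The part of Sphk2 reads in the value of Dbp was not tested. The calls of Cry2 and Dbp were close to the threshold. That of Cry2 was lost when any library but LSK replicate 1 without RBCs was left out (adjusted p up to 0.125), and that of Dbp when any library but LSK replicate 1 with RBCs was left out (up to 0.136), while Arntl and Bhlhe40 passed without any 1 of the 8 libraries. The other 6 genes did not pass (adjusted p from 0.421 to 0.918), with differences between -0.11 for Per2 and 0.12 for Cry1.

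Comparisons within 1 culture condition reuse libraries from the differences with RBCs by which Arntl and Bhlhe40 were known. Their p-values for these genes are therefore not independent of that choice and serve as a description. In cultures without RBCs, Arntl was 0.69 higher in LSK cells (limma, SE 0.106, adjusted p = 0.00322) and was the only member past the threshold, where 14.2% of all genes passed. The mean FPKM of Arntl in LSK cells was 1.68 times that in HSCs. Dbp at 0.54 (adjusted p = 0.0652), Cry2 at 0.45 (adjusted p = 0.0737) and Bhlhe40 at -0.32 (adjusted p = 0.0629) did not pass. In cultures with RBCs, where 24.4% of all genes passed, Arntl was again 0.69 higher (SE 0.106, adjusted p = 0.00202, mean ratio 1.64), and Bhlhe40 was lower by -0.45 (SE 0.10, adjusted p = 0.0117, mean ratio 0.732). The call of Bhlhe40 was lost without LSK replicate 2 with RBCs (-0.34, adjusted p = 0.0948) and without HSC replicate 1 with RBCs (-0.41, adjusted p = 0.0772). Cry2 at 0.20 (adjusted p = 0.356) and Dbp at 0.21 (adjusted p = 0.410) did not pass. The value of Dbp was 0.39 without LSK replicate 1 with RBCs and 0.02 without LSK replicate 2 with RBCs.

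**Figure D3:**
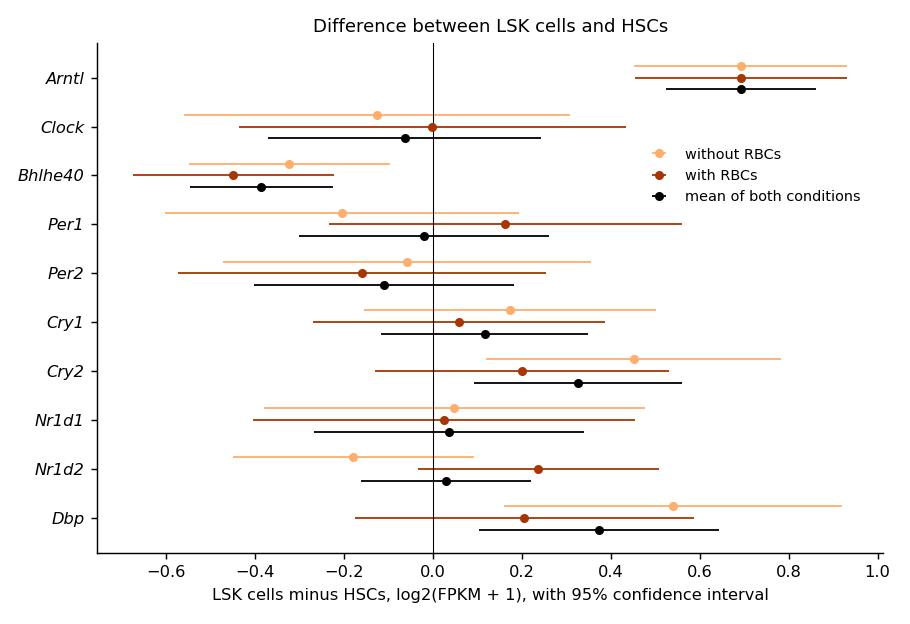
Difference between LSK cells and HSCs on the log2(FPKM + 1) scale (horizontal axis) for each of the 10 clock genes (vertical axis), in cultures without RBCs, with RBCs, and as the mean of both, with 95% confidence intervals from limma. Arntl lies at 0.69 in all 3 comparisons and Bhlhe40 lies below 0 in all 3, while the intervals of Clock, Per1, Per2, Cry1, Nr1d1 and Nr1d2 include 0.

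Whether the difference with RBCs itself differed between HSCs and LSK cells was tested as an interaction in the same fit. None of the 10 genes passed by limma, where 0.133% of all genes did. For Arntl the effect in HSCs minus that in LSK cells was -0.00143 (SE 0.150, 95% confidence interval -0.34 to 0.34, adjusted p = 0.998). For Bhlhe40 it was 0.13 (-0.19 to 0.45, adjusted p = 0.77). Both genes were known beforehand to be high with RBCs in both cell types, so neither their p-values nor their intervals are free of that choice. Nr1d2 had the lowest p-value of the members, with a difference of -0.42 (SE 0.170, 95% confidence interval -0.80 to -0.03, limma adjusted p = 0.36), from lower values in both HSC libraries and higher values in both LSK libraries with RBCs. It did not pass after adjustment.

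Other genes of the clock were taken from a list of 34 that held paralogs and regulators, ROR receptors, the PAR bZIP factors with Nfil3, kinases and ubiquitin enzymes, outputs, and genes of the resetting input. All 34 were found and 30 passed the expression filter, while Arntl2, Bhlhe41, Rorb and Fbxl21 did not. In HSCs none of the 30 differed with RBCs by limma at an adjusted p under 0.05 (2.53% of all genes did), with 18 higher and 12 lower values, a median of 0.0461 and 5 genes at an unadjusted p under 0.05. In LSK cells none of the 30 did either (3.45% of all genes did), with 18 higher and 12 lower values, a median of 0.0184 and 6 genes at an unadjusted p under 0.05. The 5 in HSCs were Usp2 (0.65, adjusted p = 0.122), Csnk1e (0.31, adjusted p = 0.0839), Por (0.36), Crem (-0.36) and Hlf (-0.20). The 6 in LSK cells were Npas2 (0.63), Timeless (-0.44, adjusted p = 0.116), Nfil3 (0.37), Hlf (0.25, adjusted p = 0.182), Tspan4 (-0.29, adjusted p = 0.0508) and Fkbp5 (-0.29, adjusted p = 0.158). Hlf thus had a negative value in HSCs and a positive value in LSK cells, but its interaction of -0.45 did not pass (limma, adjusted p = 0.217). Apart from Hlf, Npas2 and Nfil3, these genes were picked after their values were seen. The share of all genes at an unadjusted p under 0.05 is not given here, so the counts of 5 and 6 cannot be read as many or few.

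The paralogs and the receptors that act on the Arntl element had the following levels. Npas2, which can stand in for CLOCK, was low, at 0.936 and 0.706 FPKM in HSCs alone, 1.19 and 0.914 with RBCs, 0.479 and 1.39 in LSK cells alone and 2.31 and 1.55 with RBCs, a log2 difference of 0.17 in HSCs and 0.63 in LSK cells (limma, adjusted p = 0.859 and 0.227). Rora, an activator of Arntl, stood at 1.40 and 1.47 FPKM in HSCs alone, 2.18 and 2.03 with RBCs, 1.80 and 1.65 in LSK cells alone and 2.09 and 2.57 with RBCs. Its libraries with RBCs lay above those without in both cell types, with log2 differences of 0.35 and 0.29 that did not pass (limma, adjusted p = 0.393 and 0.382). Per3 stood at 5.16 and 4.3 FPKM in HSCs alone, 3.26 and 3.99 with RBCs, 6.22 and 5.45 in LSK cells alone and 4.96 and 5.76 with RBCs, with log2 differences of -0.31 and -0.10 (limma, adjusted p = 0.454 and 0.778).

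Among the D-box factors, Tef and Hlf differed between the cell types over both conditions, and Nfil3 did not pass (log2 difference -0.11, limma, adjusted p = 0.377). Tef, a PAR bZIP activator like Dbp, had 5.02 to 6.57 FPKM in HSCs against 8.93 to 10.4 FPKM in LSK cells, with no overlap between the cell types and a log2 difference of 0.58 over both conditions (limma, SE 0.0967, adjusted p = 0.00186). Hlf, which also marks HSCs, went the other way, with 38.2 to 47.4 FPKM in HSCs and 26.1 to 33.9 FPKM in LSK cells, a log2 difference of -0.49 over both conditions (limma, SE 0.0633, adjusted p = 0.000511). By condition, the difference of Hlf was -0.71 without RBCs (limma, adjusted p = 0.00115) and -0.26 with RBCs, where it did not pass (limma, adjusted p = 0.0641). The interaction of Hlf did not pass, so these conditions are not shown to differ. Nfil3, the D-box repressor, had 12.8 to 15.8 FPKM in HSCs against 10.3 to 16.1 FPKM in LSK cells, and its log2 difference with RBCs was 0.15 in HSCs and 0.37 in LSK cells (limma, adjusted p = 0.70 and 0.182). Of the 30 other clock genes, 4 were higher in LSK cells over both conditions and 3 were lower, against 32.9% of all genes. The higher ones were Tef, Per3 (0.36), Csnk1e (0.38) and Wee1 (0.27), and the lower ones were Hlf, Timeless (-0.37) and Tspan4 (-0.37), of which Csnk1e, Wee1, Timeless and Tspan4 were picked after their values were seen. Taken by condition, Per3 passed in neither (limma, adjusted p = 0.33 without and 0.0623 with RBCs), and Timeless did not pass without RBCs (-0.16, limma, adjusted p = 0.474).

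The genes with the profile most like that of Arntl were found from the root mean square difference between log2(FPKM + 1) values, each centred on its mean over the 8 libraries. For Arntl the nearest were Nedd9, a focal adhesion scaffold (0.188), Als2cl (0.209), Socs3, an inhibitor of cytokine receptor signaling (0.214), Dhrs3, a retinaldehyde reductase (0.217), and Rgs2, a regulator of G protein signaling (0.230). The root mean square of the centred profile of Arntl itself was 0.714. Socs3, for example, stood at 6.83 and 6.76 FPKM in HSCs alone, 12.4 and 12.3 with RBCs, 7.93 and 9.90 in LSK cells alone and 24.1 and 28.9 with RBCs. Like Arntl it was highest in LSK cells with RBCs, which the choice by profile over the same libraries makes likely.

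For Bhlhe40 the nearest were Itgb2, the beta chain of the leukocyte integrins (0.138), Shisa9 (0.153), Syngr1, a vesicle membrane protein (0.154), Trib2, a pseudokinase (0.156), and 1810011H11Rik (0.170), with 0.617 for Bhlhe40 itself. Shisa9 was near the floor, at 0.0663 to 0.313 FPKM without RBCs and 0.741 to 1.93 FPKM with RBCs. It reached 1 FPKM only in libraries with RBCs, and its likeness depends on the pseudocount of 1. Itgb2 stood at 4.23 and 4.20 FPKM in HSCs alone, 12.3 and 8.75 with RBCs, 2.70 and 3.20 in LSK cells alone and 9.17 and 5.74 with RBCs. Its highest library, as for Bhlhe40, was HSC replicate 1 with RBCs. Arntl and Bhlhe40 were less like each other, with a difference of 0.543. Among the other genes of the 12003, that put Bhlhe40 at rank 449 for Arntl and Arntl at rank 954 for Bhlhe40. Their differences with RBCs were close (1.24 and 1.22 in HSCs, 1.24 and 1.10 in LSK cells). Their differences between LSK cells and HSCs had opposite signs (0.69 and -0.39 over both conditions). The other members lay farther from Arntl, from rank 2020 for Cry2 to rank 10973 for Nr1d1. These are descriptions over 8 libraries that share their groups. The nearest genes were chosen for a like profile, so a shared highest library is no added result.

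**Figure D4:**
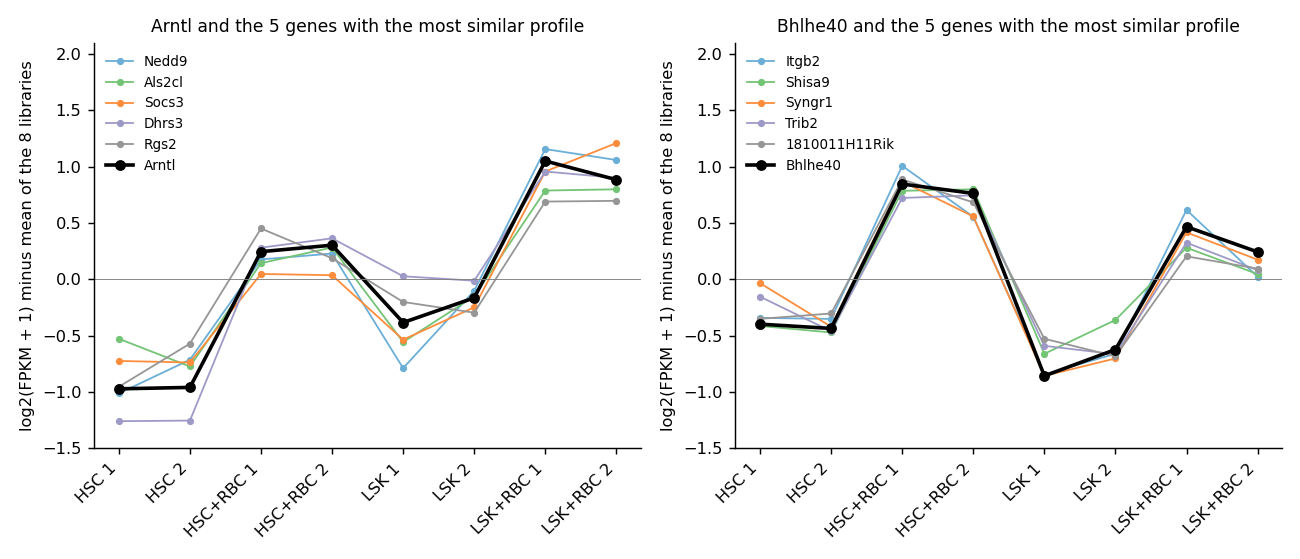
log2(FPKM + 1) minus the mean of the 8 libraries (vertical axis) in each library (horizontal axis) for Arntl (left, black) and Bhlhe40 (right, black) and the 5 genes with the smallest root mean square difference from each (colors), with lines that only join the points of 1 gene. Arntl and its 5 nearest genes were highest in LSK cells with RBCs, and Bhlhe40 and its 5 nearest genes each had their highest library among HSCs with RBCs. The nearest genes were chosen by likeness over these same libraries.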

How the data were processed

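RNA sequencing covered 8 libraries from 4 groups, with 2 libraries in each, and groups were taken from the sample labels. Full-length cDNA libraries were made by SMART-Seq HT and Nextera XT kits, which do not mark strand, and sequenced on a HiSeq instrument. For every library the authors deposited 1 table of gene symbols with their FPKM, which are already scaled for transcript length and depth. The submitters' processing notes name TopHat2 2.1.1, Bowtie2 2.2.8, SAMtools 0.1.18, Cuffdiff 2.2.1 and mm10, and the annotation is not given in the sources used here.

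The members and gene lists were chosen with earlier results of these data known. The text names the 10 members, any other clock gene past the threshold in a comparison of RBCs against no RBCs, Npas2, Per3, Rora, Nfil3, Tef and Hlf (1 further gene of this rule is not reported here), the 5 genes with the profile nearest to Arntl and to Bhlhe40, and genes that overlap a member. Values were transformed to log2(FPKM + 1), with a pseudocount of 1, for genes that reached 1 FPKM in 2 or more of the libraries (12003 genes). The 4 group means were fitted together in R 4.3.3 by limma 3.58.1 with a mean-variance trend (residual degrees of freedom 4, prior 5.18), and p-values were adjusted over all 12003 genes (threshold 0.05). The procedure was tested on simulated data. An exact two-sided permutation test of 2 libraries against 2 cannot give a p below 0.333, so calls depend on the variance that limma shares over genes. Whole reads, and from them relative depth, were read from the steps between low FPKM values, and succeeded for 7 of the 10 members (not Arntl, Clock and Per1). Absolute depth was estimated from 596 genes with a single transcript. Alternatives covered the pseudocount, the filter, the scaling, a replicate block, the trend, a 2-fold threshold, the groups in the fit and the omission of each library.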

Additional observations from a re-analysis of the deposited data

How the results depend on the processing

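Arntl and Bhlhe40 kept the sign of their difference with RBCs in both cell types under every alternative run. With 1 library left out, Arntl ranged from 1.21 to 1.27 in HSCs and from 1.13 to 1.35 in LSK cells, and Bhlhe40 from 1.18 to 1.26 and from 0.978 to 1.21. The value of Arntl in HSCs moved to 1.31 with a pseudocount of 0.1 and to 1.28 with 0.5. That of Per1 in HSCs moved from -0.40 to -0.60 with a pseudocount of 0.1. It then lay below the lowest value of Nr1d1 in HSCs over the alternatives that keep all libraries (-0.51). In LSK cells minus HSCs over both conditions, 4 members passed, where 3944 of 12003 genes did. With no filter 2 passed (Arntl and Bhlhe40), where 3397 of 18967 genes did. With quantile normalization the same 2 passed, where 3909 of 12003 genes did, and with a 2-fold threshold 0 passed. Without RBCs, 1 passed, where 1707 of 12003 genes did. With genes of at least 1 FPKM in all 8 libraries, 3 passed, where 1663 of 10692 genes did. Bhlhe40 (limma, adjusted p = 0.0422, range 0.0422 to 0.136 over the alternatives) and Dbp (0.0451, range 0.0451 to 0.141) then joined Arntl. With a 2-fold threshold 0 passed. The value of Cry2 without RBCs was 0.64 with LSK replicate 1 without RBCs left out and 0.26 with LSK replicate 2 without RBCs left out. With RBCs, 2 passed, where 2923 of 12003 genes did, and 0 passed with a 2-fold threshold. The number of all genes past a 2-fold threshold is not given here. No other clock gene passed for the difference with RBCs in LSK cells, where 414 of 12003 genes did. With genes of at least 1 FPKM in all 8 libraries, 1 (Tspan4) passed, where 462 of 10692 genes did. No member passed in the interaction, and no other clock gene in HSCs, under any alternative. Leaving out a library leaves 1 group with a single library, which is assumed to vary like the others. Whether replicate numbers pair the libraries is not known from the labels. Deviations of libraries with the same number had correlations from -0.067 to 0.095 over genes in the 6 pairs of groups. That is no strong shared shift, but it cannot exclude a common animal or culture. With a replicate block, 3 members passed over both conditions (Dbp lost, limma, adjusted p = 0.0577), 1 without RBCs, 2 with RBCs and 0 in the interaction. Of the 12003 genes, 3644, 1454, 2635 and 10 passed in these comparisons. No other clock gene passed in HSCs with this block, where 253 of all genes did. The causes of these moves were not tested. Dbp rested on as few as 49 reads in a library, a counting error of 14.3%, and Per2 and Nr1d1 on as few as 120 and 87 reads.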
